A study of Homo sapiens with 6 samples.

Results

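The cytosolic ribosomal protein genes were examined for binding of the UHRF1 tandem Tudor domain (TTD) in HepG2 cells, an established liver cancer cell line. The genes were taken by name from the protein-coding genes of GENCODE release 44 on the autosomes and chromosome X, as names of the form RPL or RPS followed by digits, with an optional A, X or L and an optional last digit, together with RPSA, RPLP0, RPLP1 and RPLP2. This rule uses no measured value and gave 84 genes of 19970, 52 encoding proteins of the large (60S) subunit and 32 of the small (40S) subunit. They lay in 81 loci, as 3 loci held 2 members each, among them RPL41 with RPS26 and RPL3L with RPS2. The series comprised 2 biological replicates each of CIDOP with GST-tagged UHRF1-TTD, H3K9me2 ChIP and input, all from cultured HepG2 cells, with no treatment named in the labels. In CIDOP (chromatin interacting domain precipitation), a tagged reading domain replaces the antibody of a ChIP experiment and captures native mononucleosomes. The values below come from 1 list of 31569 broad TTD peaks, called by the authors on the mean signal of both TTD replicates. The list holds positions and widths only, so the depth of each library and the height of a peak are unknown, no error between replicates can be given, and no difference was tested. The isolated TTD was used as the probe, not full-length UHRF1, and the libraries of the H3K9me2 ChIP and the inputs were not analysed here.

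Ribosomal proteins assemble with ribosomal RNA into both subunits of the ribosome, and their genes are scattered over the genome while being transcribed at a high and coordinated rate in growing cells. Their mRNAs typically start with a cytosine followed by a run of pyrimidines, the 5′ terminal oligopyrimidine (TOP) motif, through which mTOR signalling controls their translation. Promoters of such constantly active genes usually lie in CpG islands and carry H3K4me3 over the transcription start site (TSS), with H3K4me1 further out. The TTD reads histone H3 methylated at K9, and the study asked how H3K4me1 on the same tail affects this binding in cells.

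TTD peaks were found beside, but not on, the start sites of a minority of the ribosomal protein genes. Of the 84 genes, 16 had a peak in the 5 kb window centred on the TSS, which is 19.0% with a 95% Wilson interval from 12.1% to 28.7%. The same held for 17.0% of all protein-coding genes, so the share of the ribosomal protein genes was near the background. No TTD peak contained the TSS of a ribosomal protein gene, against 2.19% of all protein-coding genes. Among genes with a CpG-rich TSS, a class defined below to which 92.9% of the members belong, it was only 0.718%. A count of 0 of 84 allows a share of up to 3.57%, taken as 3 counts of 84, and its Wilson interval ends at 4.37%. The intervals and limits cover counting error only. A peak reached into the central 500 bp around the TSS in 3 genes, RPS7, RPS27 and RPL31, which is 3.57% against 4.55% of all protein-coding genes. These were the ribosomal protein genes with the nearest peaks, each of which ended upstream of the TSS, at 110 bp for RPS7, 112 bp for RPS27 and 119 bp for RPL31.

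The sequences of these promoters show where the peaks stop. They were taken from RefSeq (GRCh38.p14, the hg38 assembly, plus strand) and run from 250 bases before the TSS to the first 20 transcribed bases, with the bases inside a TTD peak in capitals. RPS7 encodes a 40S protein that can bind the p53 regulator MDM2, and its promoter lies at chr2:3575010-3575279. RPS27, a 40S protein with a zinc finger, starts on chromosome 1 (chr1:153990512-153990781), and RPL31, a protein near the exit tunnel of the 60S subunit, on chromosome 2 (chr2:101002039-101002308). The promoter of RPL37A, a 60S protein with a zinc finger, at chr2:216498594-216498863, is shown beside them because the flanks of this gene were the most covered of all members.
RPS7: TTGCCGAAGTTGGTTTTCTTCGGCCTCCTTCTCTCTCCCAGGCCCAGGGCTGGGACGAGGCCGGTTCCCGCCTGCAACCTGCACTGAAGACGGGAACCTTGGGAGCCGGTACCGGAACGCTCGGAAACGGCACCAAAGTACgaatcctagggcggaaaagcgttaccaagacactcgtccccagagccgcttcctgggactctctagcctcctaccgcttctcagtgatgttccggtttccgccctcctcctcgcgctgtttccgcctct
RPS27: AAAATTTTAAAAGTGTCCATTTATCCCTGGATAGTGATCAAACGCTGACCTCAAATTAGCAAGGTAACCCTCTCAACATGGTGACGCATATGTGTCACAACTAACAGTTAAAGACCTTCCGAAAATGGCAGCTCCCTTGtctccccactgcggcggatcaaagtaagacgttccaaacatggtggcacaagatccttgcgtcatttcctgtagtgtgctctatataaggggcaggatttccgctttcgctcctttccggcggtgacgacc
RPL31: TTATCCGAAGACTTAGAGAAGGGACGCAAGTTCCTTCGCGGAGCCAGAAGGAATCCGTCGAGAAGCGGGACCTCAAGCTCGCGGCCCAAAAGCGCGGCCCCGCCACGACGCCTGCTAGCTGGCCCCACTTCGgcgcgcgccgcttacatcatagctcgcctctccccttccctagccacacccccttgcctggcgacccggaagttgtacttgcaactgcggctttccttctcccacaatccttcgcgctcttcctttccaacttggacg
RPL37A: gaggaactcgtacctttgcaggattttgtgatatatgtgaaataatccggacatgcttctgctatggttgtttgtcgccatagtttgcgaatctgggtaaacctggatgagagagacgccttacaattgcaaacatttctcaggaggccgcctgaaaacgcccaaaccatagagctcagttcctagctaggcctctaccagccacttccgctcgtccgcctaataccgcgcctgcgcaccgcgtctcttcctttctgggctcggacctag
Of the 270 bases shown, 141 lay in a peak for RPS7, 139 for RPS27 and 132 for RPL31, in each case the part farthest from the TSS. The RPL37A promoter held 0 bases in a peak, although 1 peak ended 474 bp upstream of its TSS and another began 1477 bp downstream. The list was called on 10 bp bins, which limits how finely such an edge can be placed.

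Most of the start sites carried a TOP motif. The start sites of 4 genes are shown as 10 bases before and 20 bases from the TSS on, read from hg38 in the direction of transcription, with the run of pyrimidines from the first transcribed base in capitals. RPS12, RPL34 and RPSA, whose gene encodes a 40S protein also known as a laminin receptor precursor, carry runs of 10, 8 and 7 pyrimidines. RPL32 is shown as a gene whose canonical start carries no such run.
RPS12: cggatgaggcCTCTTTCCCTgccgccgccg
RPL34: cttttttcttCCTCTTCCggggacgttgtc
RPSA: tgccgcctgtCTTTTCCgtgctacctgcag
RPL32: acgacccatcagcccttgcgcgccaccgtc
The TSS was taken from the Ensembl canonical transcript and lies at position 132814569 of chromosome 6 for RPS12, 108620576 of chromosome 4 for RPL34, 39406720 of chromosome 3 for RPSA and 12841565 of chromosome 3 for RPL32, the last on the minus strand. A C stood at the first base in 63 of the 84 genes (75.0%), against 10.7% of all protein-coding genes, and a C followed by a run of at least 5 pyrimidines in all in 59 genes (70.2%), against 4.59%. High shares were also found in 51 other genes of cytosolic translation, described below, with 62.7% and 52.9%. The genes of the mitochondrial ribosome had 11.5% and 6.41%. Of the 16 genes with a peak in the 5 kb window, 15 started with C and 14 had such a run, and of the 68 without a peak 48 and 45. The canonical start of RPL32 begins with A, and the use of start sites in HepG2 cells was not analysed here.

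**Figure D1:**
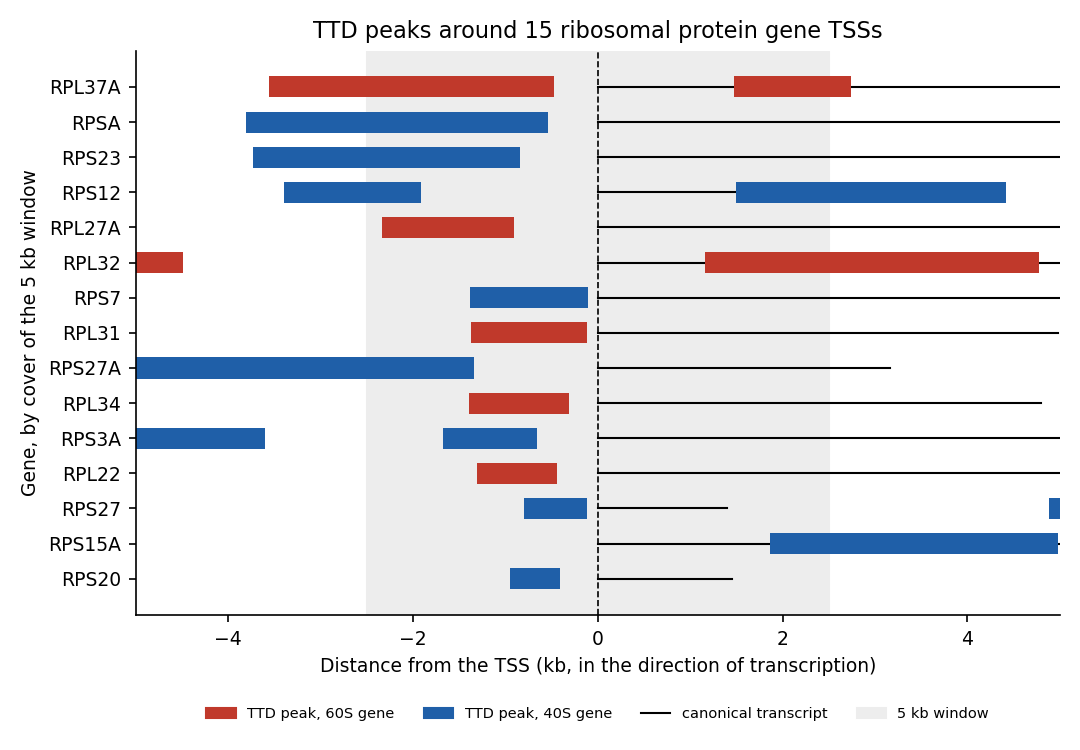
TTD peaks (bars, red for 60S and blue for 40S genes) around the TSS of 15 of the 16 ribosomal protein genes with a peak in the 5 kb window (grey), on an axis of distance from the TSS in kb, with the canonical transcript as a black line. In the window most peaks lie upstream of the TSS, 4 genes have a peak downstream, and none crosses the TSS.

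The 16 genes had cover, the percent of the 5 kb window that lies in peaks, between 11.0% and 61.0% with a median of 24.1%. RPL37A stood apart at 61.0%. It was followed by RPSA with 39.2%, by RPS23, a 40S protein of the decoding centre, with 33.1%, and by RPS12, a small 40S protein of the head, with 32.0%. The upstream peaks of the first 3 lie at chr2:216495291-216498370 for RPL37A, chr3:39402911-39406180 for RPSA and chr5:82279201-82282090 for RPS23 (hg38). In RPSA and RPS23 all of this cover was upstream, whereas RPL37A and RPS12 were the only members with peaks on both sides of the TSS within the 5 kb window.

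Cover of 20% to 30% was found in a middle group of genes, given here in descending order. RPL27A, a 60S protein, had 28.4%, RPL32, also of the 60S subunit, had 26.7%, and RPS7 and RPL31 had 25.4% and 25.0%. RPS27A, which is made as a fusion with ubiquitin, had 23.3%, RPL34 had 21.6%, and RPS3A had 20.4%. Of these genes only RPL32 had its peak downstream of the TSS.

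Among the genes below 20%, RPL22, a 60S protein, had 17.4% and RPS27 had 13.8%. RPS15A, a 40S protein bound directly to ribosomal RNA, had 12.7%, and RPS20, a 40S protein of the head, had 11.0%. For RPS20 the only peak was 550 bp wide, the narrowest of those counted here. The next genes outside the window were RPS24 with its nearest peak 3.41 kb from the TSS, RPL23 with 3.64 kb and RPL14 with 4.60 kb, which were named after their values were seen.

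Peaks were on the upstream side more often than on the downstream side. The 5 kb windows of the 16 genes held parts of 18 peaks, 14 upstream and 4 downstream of the TSS. The upstream peaks ended between 110 and 1909 bp before the TSS, with a median of 507 bp, and 11 of them ended within 1 kb. The downstream peaks, of RPL32, RPL37A, RPS12 and RPS15A, began between 1165 and 1864 bp after the TSS. No member had a TTD peak in the first 1 kb downstream of the TSS, and 0 of 84 allows a share of up to 3.57%, beside 4.51% of all protein-coding genes. The difference was not tested.

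The cover of the flanks, between 1 and 2.5 kb from the TSS, showed the same sides. A peak in the upstream flank was found in 12 genes, 14.3% with an interval from 8.37% to 23.3%, against 11.2% of all protein-coding genes. A peak in the downstream flank was found in 4 genes, 4.76% with an interval from 1.87% to 11.6%, against 7.72%. The whole upstream flank lay in peaks for RPL37A, RPSA and RPS23, and it was covered by 88.7% for RPL27A and by 77.5% for RPS27A. Among the 14 ribosomal protein genes with cover in either flank, the upstream flank had more in 11 (78.6%) and the downstream flank in 3, RPS12, RPL32 and RPS15A. Among all protein-coding genes with unequal flanks the upstream flank had more in 60.7%. The difference from this background was not tested.

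**Figure D2:**
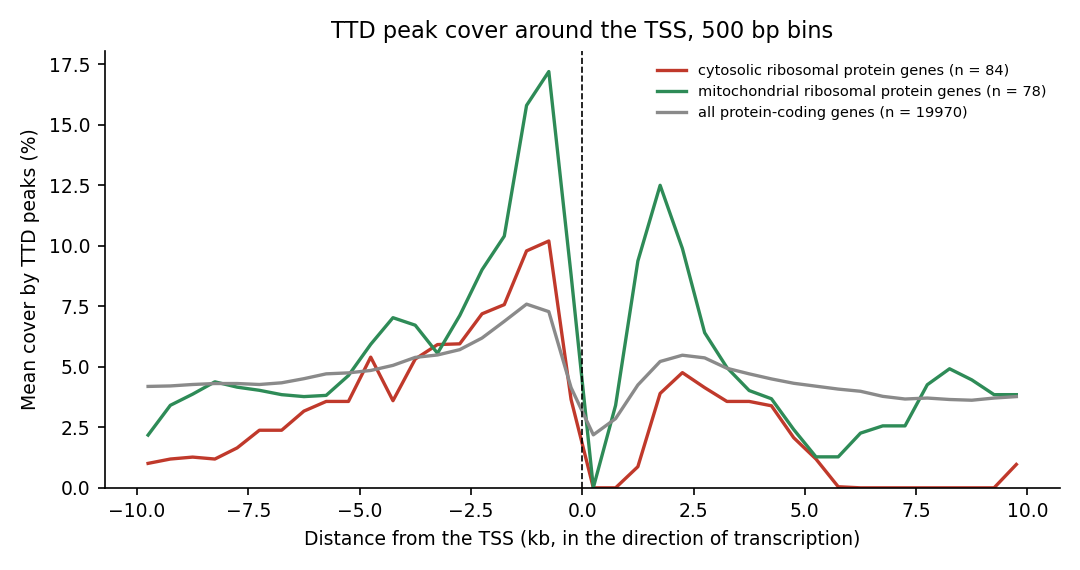
Mean cover by TTD peaks in percent, in 500 bp bins from 10 kb before to 10 kb after the TSS, for 84 cytosolic ribosomal protein genes (red), 78 mitochondrial ribosomal protein genes (green) and 19970 protein-coding genes (grey). The ribosomal protein genes reach 10.2% between 1 and 0.5 kb upstream, fall to 0% in the first 1 kb downstream and reach 4.76% between 2 and 2.5 kb.

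Averaged over all 84 genes, the 5 kb window had a mean cover of 4.80% with an SD of 11.3% between genes, beside 5.21% ± 14.2% (SD) for all protein-coding genes. The median was 0% in both lists. The mean cover of the central 500 bp was 0.981% beside 2.60%, and that of the flanks 5.68% beside 5.94%. The protein-coding genes with a CpG-rich TSS, judged from the surrounding 1 kb, a class to which 92.9% of the members belong, had a mean of 1.23% in the central 500 bp, close to that of the members. The profile of mean cover rose towards the TSS from 1.01% in the bin farthest upstream to 10.2% between 1 and 0.5 kb upstream, where all protein-coding genes had 7.28%. Beyond 6 kb downstream the members had 0% up to 9.5 kb, where the bins of all protein-coding genes stayed between 3.62% and 3.99%. The SD between genes exceeded the mean of each window, and the low central mean rests on 3 genes with cover there, RPS7, RPS27 and RPL31. Of these, RPS7 and RPL31 lie on chromosome 2, and the central mean was 0.348% without the 4 members of that chromosome.

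Most of the peaks next to ribosomal protein genes were narrower than the median peak of the list. Their median width was 1345 bp, beside 2250 bp for all peaks of the list, and 11 of the 18 were below the median of the list. The widths of peaks next to other start sites were not set beside them. The upstream peaks had a median width of 1260 bp and the downstream peaks of 3025 bp. The widest was the peak of RPS27A with 3660 bp. When only peaks at or above 2250 bp were kept, 7 ribosomal protein genes instead of 16 had a peak in the 5 kb window. The mean cover was then 2.33% instead of 4.80%, and no gene had a peak in the central 500 bp. All protein-coding genes then had 7.34% with a peak instead of 17.0%, and a mean cover of 2.77% instead of 5.21%. The loss was of similar size in both, so narrow peaks were not shown to be particular to the members.

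The member was the protein-coding gene with the TSS nearest to the midpoint of the peak for 16 of the 18 peaks. The exceptions were the peak upstream of RPL27A, which overlaps TRIM66 and nearer to the TSS of that gene, and the peak upstream of RPS27A, which overlaps CLHC1 and nearer to its TSS. Peaks over lncRNA genes were found at 6 start sites, among them RPL34-DT and RPL37A-DT, which are divergent transcripts of these members, and CERNA3 beside RPS20. The upstream peak of RPS12 overlaps SLC18B1. Outside the member, other protein-coding genes and lncRNA genes lay 5 of the 18 peaks, and 0 of them contained the TSS of a protein-coding gene.

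The genes themselves were rarely covered. A peak in the gene record was found in 7 of 84 genes (8.33%, interval from 4.10% to 16.2%), beside 34.2% of all protein-coding genes. Ribosomal protein genes are short, with a median length of 5.55 kb beside 27.5 kb, and a longer gene has more room for a peak. Among genes of at most 10 kb, a length limit chosen after the data were seen, a peak was found in 3 of 61 ribosomal protein genes (4.92%, interval from 1.69% to 13.5%) and in 8.25% of 5115 protein-coding genes, so the distance from the background was smaller within that length class. The part of gene length in these shares was not tested. The mean cover of the gene was 2.28% ± 9.40% (SD) over the 84 genes, beside 3.40% ± 9.22% over all protein-coding genes. Pooled over bases the order was the opposite, with 44.3 of 881 kb of the members in peaks (5.03%) beside 3.55% for all protein-coding genes, but the long record of RPL37A supplied 29.0 kb of this, and the pooled cover was 1.92% without that gene.

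The largest cover of the gene was 50.9% for RPL32 and 50.2% for RPS12. It was 36.0% for RPL37A and 34.3% for RPS15A, and 12.8% for RPL27A. In RPL39L and RPL22 it was only 3.64% and 3.57%. The first 4 of these were the genes with a peak downstream of the TSS in the 5 kb window.

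For RPL37A, RPL27A, RPL39L and RPL22 the gene record is longer than the main transcript. The record of RPL37A spans 80.4 kb and its canonical transcript 5243 bp, and the record holds 3 further peaks of 6120, 7410 and 14170 bp beyond that transcript. In the span of the canonical transcript, a peak was found in 4 genes, RPL32, RPS12, RPS15A and RPL37A, which is 4.76% (interval from 1.87% to 11.6%) beside 30.7% of all protein-coding genes. Among genes of at most 10 kb it was 4.92% beside 7.62%. In the 4 genes, the transcripts were covered by 51.0%, 50.2%, 34.5% and 24.0%. Exons of the canonical transcript made up 7.84% of the peak in RPL32, 9.90% of that in RPS12, 2.56% of that in RPS15A and 19.0% of that in RPL37A, so most of each peak lay in introns or, for RPS12, beyond the end of the gene.

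The peaks in RPL32 and RPS12 also touched small nucleolar RNA (snoRNA) genes, which guide the modification of ribosomal RNA and are often housed in introns of ribosomal protein genes. The peak in RPL32, at chr3:12836791-12840400, overlapped SNORA7A. The peak in RPS12, at chr6:132816061-132818990, overlapped SNORA33 and SNORD100, and 51.3% of its width lay in the gene. No other member had a snoRNA gene in a peak counted here.

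By subunit, 10 of the 32 genes for 40S proteins (31.2%, interval from 18.0% to 48.6%) and 6 of the 52 genes for 60S proteins (11.5%, interval from 5.40% to 23.0%) had a peak in the 5 kb window, beside 17.0% of all protein-coding genes. The mean cover of the window was 6.97% ± 11.8% (SD) for the 40S genes and 3.46% ± 10.9% for the 60S genes. The intervals of both shares overlap, which does not decide whether the shares differ, and the difference was not tested. Within 100 kb, 25 of the 40S genes (78.1%) and 37 of the 60S genes (71.2%) had a peak, beside 78.0% of all protein-coding genes, and the mean cover was 2.46% and 2.49%.

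**Figure D3:**
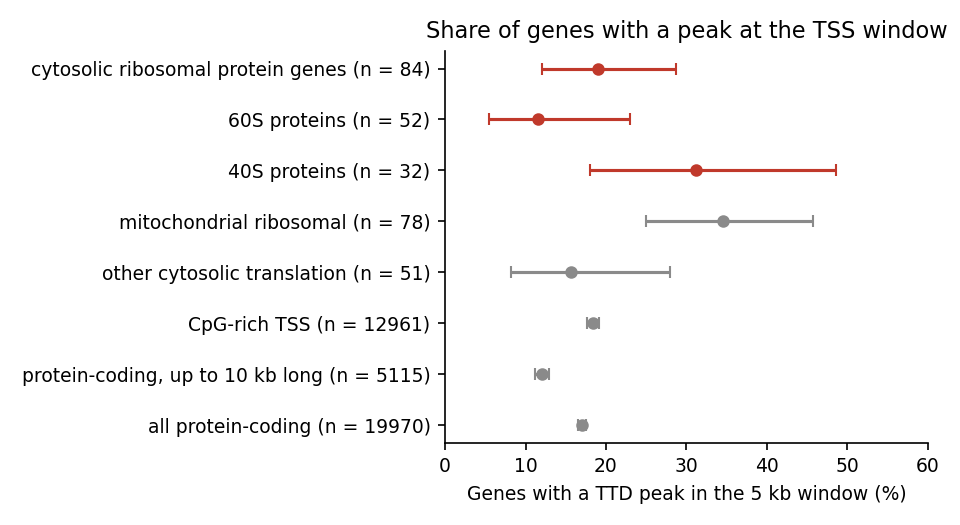
Percent of genes with a TTD peak in the 5 kb window around the TSS, with 95% Wilson intervals as bars, for the ribosomal protein genes (red) and the lists set beside them (grey). The interval of the 84 genes, 12.1% to 28.7%, contains the 17.0% of all protein-coding genes, and the mitochondrial ribosomal protein genes have 34.6%.

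The 7 paralogues, which replace or accompany a standard ribosomal protein, had no peak in the 5 kb window, but 0 of 7 allows a share of up to 42.9%, beside 17.0% of all protein-coding genes. RPL22L1, whose product can stand in for RPL22, had its nearest peak at 13.6 kb and RPL22 at 0.436 kb. RPS27L, a p53 target, had it at 25.4 kb and RPS27 at 0.112 kb. In the other pairs neither gene had a peak in the window.

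Around the paralogues, cover within 100 kb of the TSS varied widely. It was 12.5% for RPL39L and 0% for its partner RPL39, and 9.04% for RPS27L and 1.12% for RPS27. It was 5.42% for RPL22L1 and 1.22% for RPL22, 4.30% for RPL7L1 and 3.03% for RPL7, and 3.53% for RPL26L1 and 2.75% for RPL26. In these pairs the paralogue lay in the more covered surroundings. Neither gene of the pairs RPL3L and RPL3 or RPL10L and RPL10 had a peak within 100 kb. RPL3L, a gene of striated muscle, was also the member with the lowest CpG content at the TSS, with an observed/expected ratio of 0.171 beside 0.930 for RPL3.

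Within 100 kb of the TSS, a TTD peak was found for 62 genes (73.8%, interval from 63.5% to 82.0%), beside 78.0% of all protein-coding genes. The median distance from the TSS to the nearest peak was 35.2 kb, with quartiles of 12.1 and 102 kb, beside 30.4 kb with quartiles of 6.72 and 87.2 kb. The nearest peak was within 10 kb for 21 genes (25.0%, beside 29.9%), between 10 and 100 kb for 41 and farther away for 22. Apart from the 16 genes above, those within 10 kb were RPS24, RPL23, RPL14, RPL7L1 and RPL29. The nearest peak lay upstream of the TSS for 51 genes (60.7%) and downstream for 33, beside 52.7% upstream among all protein-coding genes. Without chromosome 19, 57 of 72 members (79.2%) had a peak within 100 kb, beside 79.5% of all protein-coding genes. The median distance was then 28.9 kb beside 28.3 kb, whereas the mean cover within 100 kb stayed lower, at 2.83% beside 4.12%.

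The 22 genes without a peak within 100 kb are named here, except 1, to account for them. They included RPL3, RPL3L, RPL6, RPL10, RPL10L, RPL13A, RPL15, RPL18, RPL19, RPL35A, RPL36, RPL36A, RPL38, RPL39, RPLP2, RPS2, RPS4X, RPS9, RPS15, RPS19 and RPS21. Of the 22 genes, 7 lie on chromosome 19, which holds 12 members, and 4 on chromosome X. The most remote were RPL10L, a testis gene without introns, with 858 kb, RPS15, a 40S protein of the decoding region, with 497 kb, and RPL36A, a 60S protein of the tRNA exit site, with 395 kb.

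**Figure D4:**
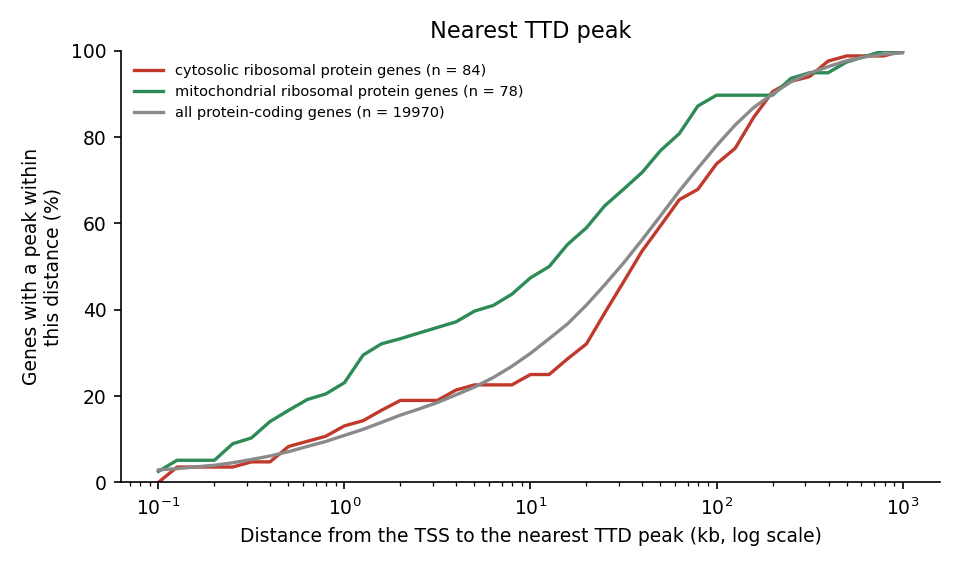
Cumulative percent of genes against the distance from the TSS to the nearest TTD peak in kb on a log scale, for the 84 cytosolic ribosomal protein genes (red), the 78 mitochondrial ribosomal protein genes (green) and 19970 protein-coding genes (grey). The red and grey curves run close to each other up to 10 kb, with 25.0% and 29.9% there, and the median distances are 35.2 and 30.4 kb.

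The cover of the surroundings, the percent of the 200 kb around the TSS in peaks, had a mean of 2.48% ± 3.09% (SD) and a median of 1.45%, beside 3.92% ± 5.69% and 2.01% for all protein-coding genes. RPL37A had the largest cover with 19.5%, followed by RPL39L, a testis paralogue, with 12.5% and RPL27A with 9.24%. RPL39L had this cover without a peak in its 5 kb window, since its nearest peak was 33.2 kb from the TSS.

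**Figure D5:**
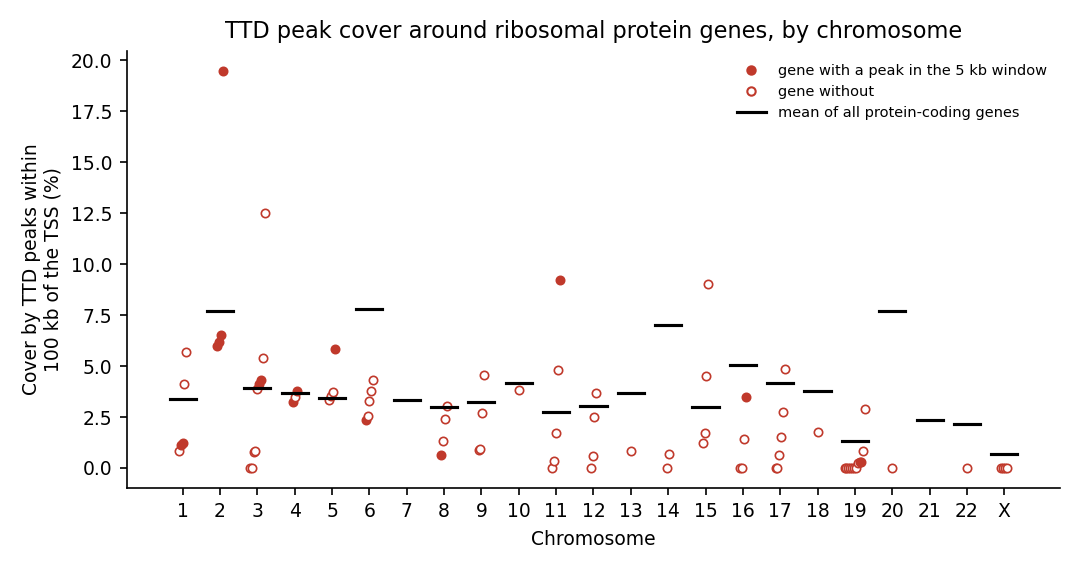
Cover by TTD peaks within 100 kb of the TSS in percent for each of the 84 ribosomal protein genes, by chromosome, filled where the 5 kb window holds a peak, with the mean of all protein-coding genes of the chromosome as a black bar. All 4 genes of chromosome 2 are filled and lie between 6.0% and 19.5%, and the genes of chromosome X lie at 0%.

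The number of members with a peak differed between chromosomes, most of which hold few members. All 4 members of chromosome 2, RPL37A, RPS7, RPL31 and RPS27A, had a peak in the 5 kb window, and 31.0% of all protein-coding genes of this chromosome did. Chromosome 19 holds the most members, 12, of which 1 had a peak in the window, beside 8.20% of its protein-coding genes. None of the 4 members of chromosome X had one, beside 4.07%. Chromosomes rich in peaks did not all resemble chromosome 2. On chromosome 6, 1 of 5 members had a peak in the window, beside 29.9% of its protein-coding genes, on chromosome 20 it was 0 of 1 beside 32.1%, and on chromosome 14 0 of 2 beside 26.6%. On chromosome 16 it was 1 of 4 beside 21.4%, and on chromosome 17 0 of 6 beside 16.6%. Chromosomes 2, 14, 16, 17 and 20 were taken as gained in HepG2 cells from general knowledge of the karyotype, and the methods name no correction for copy number, whose part in these values was not tested. On the other chromosomes, 11 of 67 members (16.4%) had a peak in the window, beside 14.7% of all protein-coding genes. Without chromosome 2, 12 of 80 genes (15.0%) had a peak in the window, beside 16.1% of all protein-coding genes, and the mean cover was 3.35% beside 4.87%. Without chromosome 19, it was 15 of 72 (20.8%) beside 17.7%.

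When each chromosome was given the weight it has among the ribosomal protein genes, the share of all protein-coding genes with a peak in the 5 kb window became 16.1%, with a mean cover of 4.91%. The ribosomal protein genes, with 19.0% and 4.80%, were near these values too. In the same way, the share of protein-coding genes with a peak within 100 kb became 76.5% and their mean cover within that distance 3.68%, beside 73.8% and 2.48% for the members. The weighted mean of the central 500 bp was 2.47%, beside 0.981%.

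The CpG content around the TSS was high in nearly all members, with or without a peak. A CpG-rich TSS, with a CpG observed/expected ratio of at least 0.6 and at least 50% GC in the surrounding 1 kb, was found in 78 of 84 ribosomal protein genes (92.9%) and in 64.9% of all protein-coding genes. The median ratio was 0.765 for the 16 genes with a peak in the 5 kb window and 0.799 for the 68 without. Among all CpG-rich genes 18.4% had a peak in the window and 0.718% a TSS inside a peak. The genes with a peak had a median of 2 other protein-coding TSSs within 100 kb and those without had 4, values that overlap widely, from 0 to 11 and from 0 to 16.

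Letters of known promoter motifs were searched on both strands from 250 bases before to 50 bases after the TSS. CCGGAA, the core bound by ETS factors such as GABP, was found in 48 of 84 ribosomal protein genes (57.1%) and in 22.8% of all protein-coding genes. AAGATGGC, as bound by YY1, was found in 11 (13.1%) and 4.06%, GGGCGG, as bound by SP1, in 50 (59.5%) and 61.3%, and the TATA box letters TATAAA, on the strand of the gene only, in 5 (5.95%) and 7.12%. Among genes with a CpG-rich TSS the shares were 29.8% for ETS, 5.33% for YY1, 80.4% for SP1 and 3.21% for TATA. The SP1 share of the members was thus below that of this class. High shares were not limited to the members, as the genes of the mitochondrial ribosome held the ETS letters in 60.3% and the YY1 letters in 28.2%, and 51 other genes of cytosolic translation in 47.1% and 19.6%. The ETS letters were in 10 of the 16 genes with a peak in the 5 kb window (62.5%) and in 38 of the 68 without (55.9%). All of RPS7, RPS27 and RPL31 held them, and RPL37A did not. A match of letters is a description and does not show that a factor binds there.

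A further list of 51 genes of cytosolic translation was fixed, with initiation and elongation factors, ribosomal proteins that the name rule leaves out and related genes. Of these 51 genes, 8 (15.7%, interval from 8.17% to 28.0%) had a peak in the 5 kb window, and the mean cover of the list was 4.36%. The largest cover was 53.1% at EEF1E1, a component of the tRNA synthetase complex, 46.2% at EIF3M, an initiation factor subunit, and 41.8% at BTF3, a subunit of the nascent polypeptide-associated complex. The ribosomal proteins FAU, RPL36AL and RACK1, which the name rule leaves out, had 0% there, with nearest peaks at 96.5, 69.7 and 109 kb.

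The nuclear genes for proteins of the mitochondrial ribosome, set beside the members as a ribosome of another compartment, had more. A peak in the 5 kb window was found in 27 of 78 (34.6%, interval from 25.0% to 45.7%), with a mean cover of 9.64% ± 17.3% (SD), and the median distance to the nearest peak was 12.4 kb. The largest cover was 85.0% at MRPL3, 56.4% at MRPS18A and 53.8% at MRPL46. Their first 500 bp downstream of the TSS were covered by 0.0103% on average, beside 0% for the cytosolic ribosomal protein genes, and their mean cover reached 17.2% between 1 and 0.5 kb upstream. The difference between both lists of ribosomal protein genes was not tested.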

How the data were processed

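TTD CIDOP, H3K9me2 ChIP and input were sequenced from HepG2 cells, with 2 biological replicates each. The authors trimmed the reads with Trimmomatic 0.38, checked them with FastQC 0.72, mapped them to hg38 with HISAT2 2.2.1 and derived an RPKM track of 10 bp bins with deepTools 3.3.2, leaving out the hg38 blacklist. They averaged both TTD replicates, called broad peaks on the mean with MACS2 2.1.1 with set cutoffs, and removed blacklisted peaks, artifacts and large false positives after manual inspection. The authors deposited 1 list of 31569 TTD peaks with positions and widths in bp and no other measure. The study states a minimum number of reads, but the depth per library cannot be read from the list. Weak peaks below the cutoffs and peaks removed by eye are missed here.

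Cover was computed as the percent of a window in peaks, with 1 bp as the smallest overlap, in the central 500 bp, the flanks (1 to 2.5 kb), the 5 kb window, the gene and 100 kb on each side of the TSS. The TSS was the 5′ end of the Ensembl canonical transcript in GENCODE release 44 (hg38). The work was done with pandas 2.3.3, scipy 1.17.1, numpy 2.4.6 and matplotlib 3.10.9 under Python 3.11.15, and the interval arithmetic was checked on simulated data. The 95% intervals are Wilson intervals for counting error alone. No test was made, because the replicates were pooled before peak calling. RefSeq promoters were matched for 67 of 84 members by symbol.

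The members and lists were chosen with earlier results of these data known. Named genes were all with a peak in the central 500 bp, up to 20 with the largest cover of the 5 kb window, up to 10 with the largest cover of the gene, the 3 farthest from a peak, the 3 with the largest cover within 100 kb, 7 paralogue pairs, and the top 3 of each list set beside the members. The values of 3 single genes are not reported here. Alternatives were other start sites, windows, peak widths, overlaps and sets of members.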

Additional observations from a re-analysis of the deposited data

How the results depend on the processing

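Of 84 recomputed values, 73 stayed within 1.5 times the reported one. Keeping only peaks of at least 2250 bp, the median width, moved the values at the TSS and within 100 kb: 7 genes instead of 16 had a peak in the 5 kb window, with a mean cover of 2.33%, the central 500 bp had 0% and the flanks 3.43%, 41 genes had a peak within 100 kb with a mean cover of 1.58%, and the median distance to the nearest peak was 103 kb. All protein-coding genes fell in a similar way, from 17.0% to 7.34% with a peak in the 5 kb window and from 5.21% to 2.77% mean cover. The other values at this width were not computed for all protein-coding genes. Narrow peaks therefore carry much of what was found in the 5 kb windows, of the members and of all protein-coding genes alike. The list of peaks holds no score to rank them by. A central window of 1 kb had a mean cover of 1.83%, as it reaches farther from the TSS than the central 500 bp.

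Alternatives chosen after seeing the data left out chromosomes or changed the gene model. The mean cover of the central 500 bp was 0.348% without chromosome 2 and 0.415% on the chromosomes not taken as gained in HepG2 (without 2, 14, 16, 17 and 20), because RPS7 and RPL31 drop out. In the span of the canonical transcript 4 genes had a peak. No paired analysis was possible because peak calling followed the pooling of both replicates. Small peaks missed at the depth of these libraries could not be assessed.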
